A study of Mus musculus with 31 samples.

Results

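Central axons of Nav1.8-lineage sensory neurons were profiled by translating ribosome affinity purification (TRAP) in 8 of the 31 libraries of this mouse study, chosen by their labels: 4 from mice with Cre and 4 from Cre-negative mice. The 4 Cre libraries came from Nav1.8-Cre;L10a-eGFP-fl/fl mice and the 4 controls from L10a-eGFP-fl/fl mice, so both groups carried the floxed transgene and, by these labels, differed in Cre alone. Cre expressed from the Nav1.8 gene (Scn10a) turns on a GFP-tagged ribosomal protein L10a, and ribosomes carrying the tag are pulled down with their RNA. Both groups were taken from lumbar 1 to 6 dorsal roots together with spinal cord and belong to batch 1. The labels call the libraries biological replicates and give no age, sex or number of animals pooled, so the p-values measure the spread between these libraries. Libraries were made with a SMART-Seq v4 kit from an estimated yield under 100 pg.

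Somas of dorsal root ganglion neurons lie outside the spinal cord, and their central axons run through the dorsal roots to synapse mainly in the dorsal horn. Nav1.8 is a voltage-gated sodium channel of nociceptors, the neurons that detect painful stimuli, and its Cre line also marks C-low-threshold mechanoreceptors (C-LTMRs), which respond to gentle touch, and other sensory neurons. Since the tissue holds many local cells that carry no tag, the Cre-negative pulldown measures the RNA recovered without tagged ribosomes, and a transcript of the tagged axons can be seen only where it stands above that background. The counts do not record where along the axon a transcript was.

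The Cre libraries held 10.4 to 11.1 M counts (M, mega) and the controls 7.82 to 12.4 M. At least 10 counts were reached by 15035 to 15952 genes in Cre libraries and by 15153, 10890, 7251 and 13355 genes in controls 1 to 4. Replicates ranked the genes alike in the Cre group (Spearman's rho across genes 0.882 to 0.911) and less so among controls (0.522 to 0.792), and the common biological coefficient of variation was 1.16. Levels below are normalised CPM, counts relative to the library total after scaling by TMM factors, given in the order of replicates 1 to 4, which has no meaning beyond naming the libraries. Of 14189 genes tested, 2 passed edgeR's quasi-likelihood test at a Benjamini-Hochberg adjusted p under 0.05 (0.0141% of genes), both higher in Cre libraries: Sncg and Tppp3.

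The neuronal markers proposed for these axons stood above the background in each library. Sncg encodes gamma-synuclein, an abundant protein of peripheral sensory neurons. It lay at 5646, 3312, 3979 and 1737 normalised CPM in the Cre libraries and at 192, 161, 220.2 and 180.2 in the controls. The lowest Cre library was far above the highest control, and Sncg rose by a log2 fold change of 4.28 (SE 0.39, adjusted p = 0.00405 by edgeR; ENSMUSG00000023064, chromosome 14, 34370274 to 34374789, GRCm38). Tppp3, which encodes a tubulin polymerisation-promoting protein, lay at 3426, 1739, 2276 and 1212 in Cre libraries and at 155, 103, 209.6 and 255 in controls. It rose by 3.58 on the log2 scale (SE 0.42, adjusted p = 0.0264 by edgeR; ENSMUSG00000014846, chromosome 8, 105467493 to 105471526). Neither call held under every omission of a library: leaving out control 1 or control 4 took Sncg to an adjusted p of 0.0618 or 0.0662, and leaving out any library except Cre library 4 took Tppp3 to between 0.0575 and 0.0965 (edgeR).

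The other proposed markers were also separated in the libraries but did not pass the adjusted test. Acpp, whose product hydrolyses AMP to adenosine on nociceptors, lay at 145, 31.1, 37.3 and 24.1 normalised CPM in Cre libraries, against 1 count in control 1 and 0 in the others. The gene lies at ENSMUSG00000032561, chromosome 9, 104288251 to 104337748. The ratio of the summed levels was 2130.0, with a 95% counting interval of 382 to 84166 (edgeR adjusted p = 0.112). Scn11a, the gene of the nociceptor sodium channel Nav1.9, lay at 156, 60.3, 30.7 and 22.3 in Cre libraries and had 0 counts in all 4 controls. Taking 3 counts per control library as the floor, its mean was at least 209-fold higher in the Cre group (edgeR adjusted p = 0.161). Anxa2, the calcium-dependent membrane-binding protein annexin A2, lay at 2147, 982, 1303 and 408 in Cre libraries and at 159.9, 124, 226 and 194 in controls (log2 fold change 2.78, SE 0.47, adjusted p = 0.161 by edgeR). All 5 markers were higher in every Cre library than in any control (6.77% of all genes were), and DESeq2, run as an alternative, called all 5 (1.36% of all genes were called higher). These markers were chosen with earlier results of these data known, so their direction is not independent evidence. Acpp passed in edgeR without control 3 (adjusted p = 0.0407), and Anxa2 without Cre library 4 (adjusted p = 0.0341).

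Scn10a itself, the gene whose locus drives Cre, lay at 484, 103, 126 and 42.7 normalised CPM in Cre libraries and at 2.13, 0, 0 and 30.6 in controls. Its groups did not overlap either, but control 4 reached a level near that of Cre library 4, and the log2 fold change of 4.52 had an SE of 1.72 (edgeR adjusted p = 0.818). Rpl10a, the gene of the tagged protein, lay at 54.8, 36.9, 48.5 and 63.2 in Cre libraries and 25.1, 73.3, 98.5 and 30.3 in controls, and its groups overlapped (log2 fold change -0.16, SE 0.66). The counts do not separate transgene from native Rpl10a transcripts.

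Below the adjusted threshold the ranking was unequal in direction. At an unadjusted p under 0.05 there were 684 genes (4.82% of those tested), 454 higher in Cre libraries (3.2%) and 230 lower (1.62%). At an unadjusted p under 0.001 there were 37 higher genes and 0 lower ones, of which 35 were protein-coding. Independently of the dispersion model, 961 genes were higher in every Cre library than in any control (6.77%), and 194 were lower in every Cre library (1.37%). The log2 fold changes of all genes had a median of 0.11. The share of all genes with an unadjusted p under 0.05 was thus no larger than the threshold itself, and the single genes below are given by their values in each library. Leaving out 1 control moved the count of higher genes at an unadjusted p under 0.05 from 454 to 1879 without control 1, 716 without control 2, 940 without control 3 and 783 without control 4, whereas leaving out a Cre library gave 356 to 518.

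The excess of higher over lower genes differed between levels. Among the 6819 genes with a mean of at least 32 normalised CPM over the 8 libraries, 207 were higher and 216 lower at an unadjusted p under 0.05, and 299 were higher and 169 lower without overlap. Among the remaining genes 662 were higher and 25 lower without overlap. In the lowest class, under 4 normalised CPM, 240 of 1676 genes (14.3%) were higher without overlap and 0 were lower. At 256 normalised CPM or more, 50 of 685 genes (7.30%) were higher and 28 (4.09%) lower. Part of the low-level excess lay in genes with 0 counts in all controls: 110 genes had 0 counts in every control and at least 10 in every Cre library, and 0 genes showed the reverse. The low-count filter keeps genes that reach about 10 counts in as many libraries as 1 group holds. Controls 2, 3 and 4 had fewer genes with 10 counts than any Cre library. A low-level gene could thus enter the test more easily through the Cre group, and the counts at low level are descriptions. The part of the filter and of this difference in the excess was not tested.

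**Figure D1:**
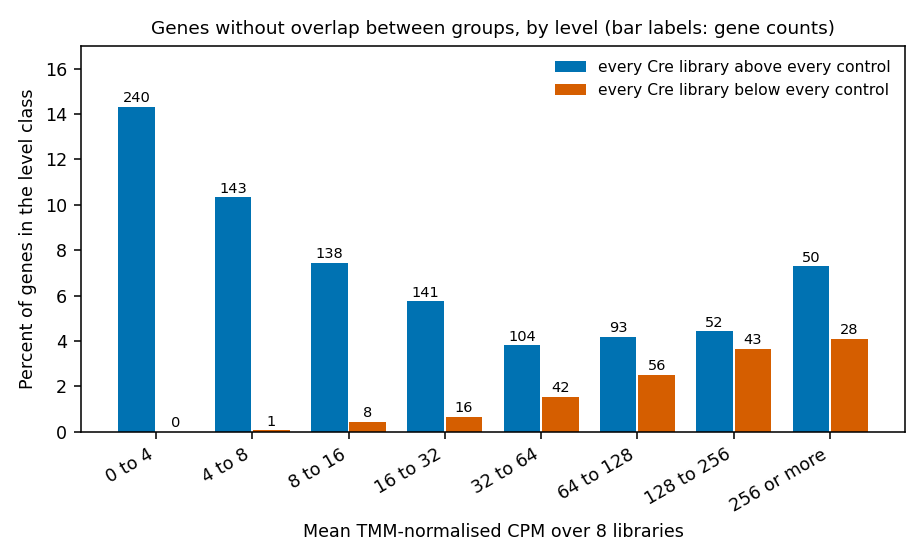
Percent of the tested genes in each class of mean TMM-normalised CPM (x axis) whose 4 Cre libraries all lay above (blue) or all lay below (orange) the 4 controls, with the number of genes over each bar. Higher genes run from 14.3% in the lowest class to 3.80% at 32 to 64 CPM and 7.30% at 256 CPM or more, and lower genes are nearly absent under 16 CPM.

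**Figure D2:**
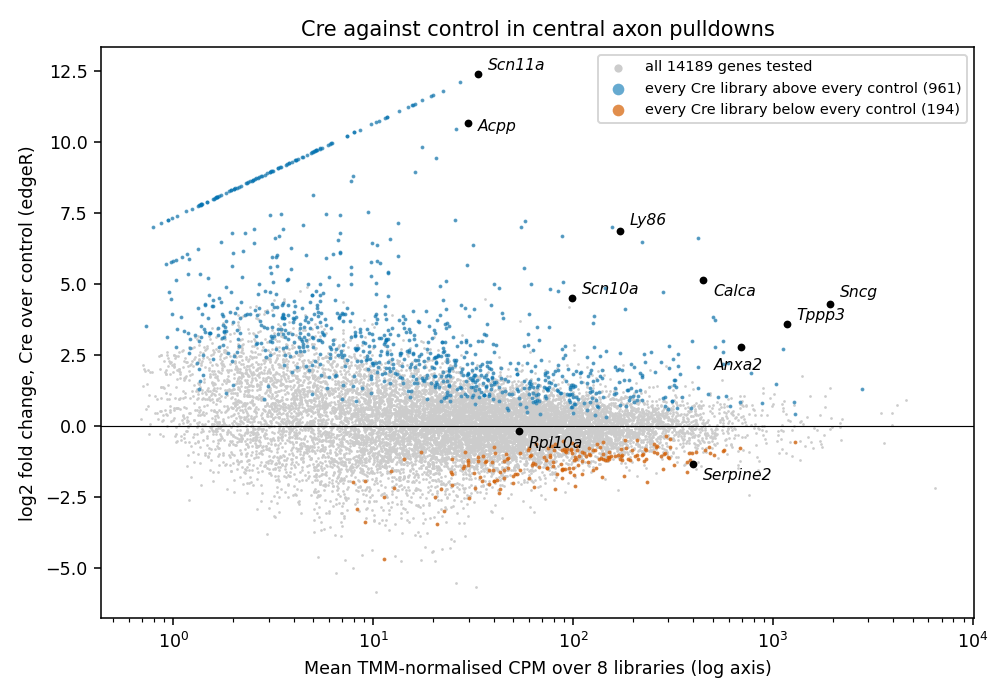
The log2 fold change of Cre over control (edgeR, y axis) against mean TMM-normalised CPM over the 8 libraries (log x axis) for the 14189 genes tested. Blue points are the 961 genes higher in every Cre library, orange points the 194 lower in every Cre library, and black points named genes; the straight upper line holds genes with 0 counts in all controls, whose fitted values depend on the prior count.

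The ranking beyond the 2 called genes is described here by its leading members. The 25 with the smallest unadjusted p among non-overlapping higher genes (log2 fold change of at least 1) had edgeR adjusted p-values from 0.00405 to 0.227, and 8 of them had 0 counts in all controls. DESeq2 called all 25 (it called 217 genes in all, 1.53% of those tested: 193 higher, 1.36%, and 24 lower). The 25 were chosen by p and non-overlap in the same libraries, so these DESeq2 calls are not independent evidence. Within this group Cre library 1 was the highest of the 4 Cre libraries for 22 genes and Cre library 4 the lowest for 24. Of the 25, 4 are predicted genes with Gm symbols and are not described further. In the gene lists below, a member with 0 or few counts in the controls could pass the low-count filter only through the Cre group. This fixes or nearly fixes its direction. Subsets limited to members with any control count still hold such members, so all counts and medians over tested members are descriptions. Members named beyond the 4 of smallest p were picked after their values were seen.

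**Figure D3:**
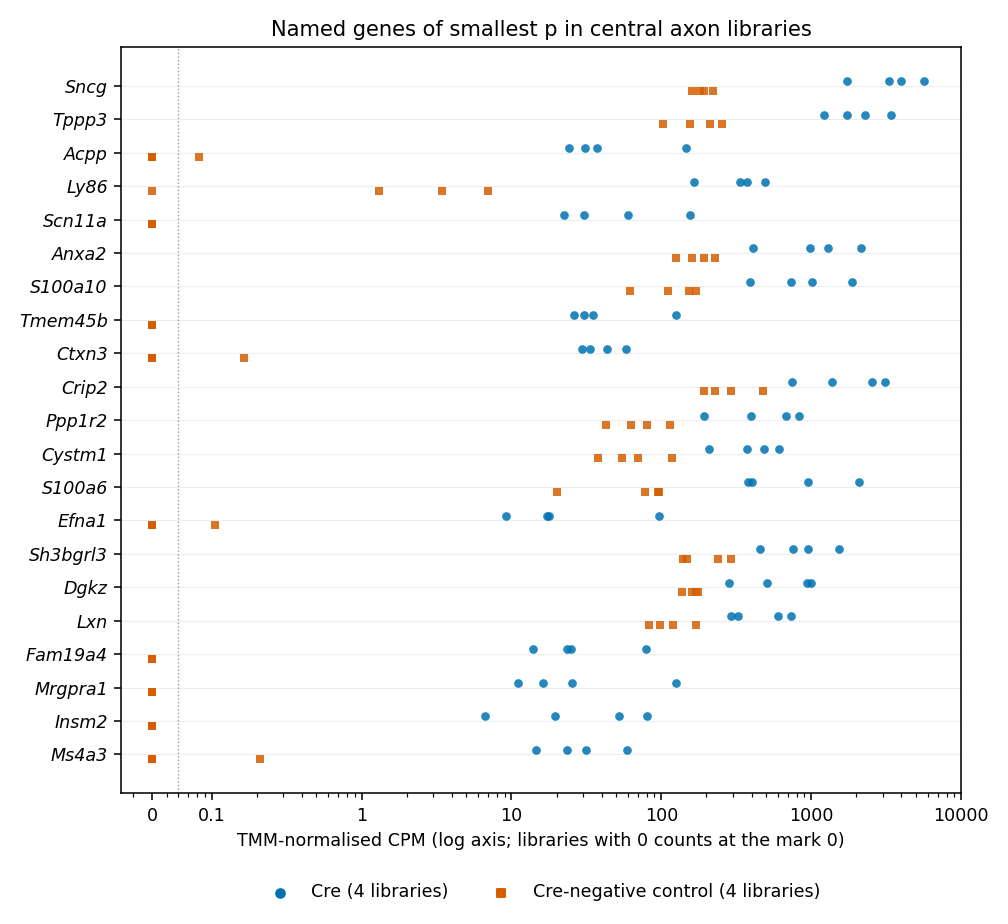
TMM-normalised CPM (log x axis, with 0 counts drawn at the mark 0) of the 21 genes with a gene name among the 25 of smallest p, ordered by p from Sncg down, in 4 Cre libraries (blue circles) and 4 Cre-negative controls (orange squares). For each gene the blue and orange points do not overlap, which is part of how these genes were chosen.

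Receptors and other surface proteins of nociceptors were mostly higher in the Cre libraries. Of 22 listed genes 16 passed the low-count filter, and 15 of these had positive log2 fold changes, with a median of 4.53 (4.08 with genes at 0 in the controls set to their bound) beside 0.11 over all genes. Among the 14 with any control count 13 were positive, with a median of 3.72. These still include members that needed the Cre group to pass the filter, such as Acpp with 1 control count. In 9 of the 16 the unadjusted p was under 0.05 and the level higher (3.2% of all genes), in 0 lower, and 11 were higher in every Cre library (6.77% of all genes). None of the 16 passed edgeR's adjusted test, and 8 were called higher by DESeq2 (1.36% of all genes). Mrgprd, a receptor of non-peptidergic nociceptors, lay at 113, 25.4, 56 and 9.87 normalised CPM in Cre libraries and at 1.23, 0, 0 and 0 in controls. The itch receptor gene Mrgpra3 lay at 14.3, 15.5, 6.08 and 7.34 in Cre libraries with 0 counts in all controls (at least 33.6-fold higher). Lpar3, a lysophosphatidic acid receptor, lay at 9.53, 2.3, 4.24 and 3.99, likewise against 0 (at least 15.6-fold higher), and Mrgpra1 at 125, 16.2, 25.2 and 11.1 (at least 138-fold higher). Cd55, a complement regulator, lay at 28.6 to 79 in Cre libraries and at 0 to 2.71 in controls. Ret, a receptor subunit for the GDNF family, did not overlap between groups (113 to 606 against 0.365 to 105) but had an unadjusted p of 0.0873, and Gfra2, a co-receptor of that family, overlapped at 36.7 to 102 against 72.1 to 115.

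Nociceptor ion channels followed the receptors. Of 14 listed genes 11 were tested, with a median log2 fold change of 3.48 (2.14 over the 9 with any control count). Scn10a, Scn11a, Trpv1, Piezo2 and Tmem233 were higher both at an unadjusted p under 0.05 (5 of 11, beside 3.2% of all genes) and without overlap (beside 6.77%), and 0 were lower. Trpv1, the heat- and capsaicin-gated channel, lay at 32.7, 21.4, 14.6 and 13.9 normalised CPM in Cre libraries and had 0 counts in all controls (at least 64.3-fold higher, adjusted p = 0.227 by edgeR). Piezo2, a mechanically gated channel, lay at 332, 131, 58.9 and 38.6 in Cre libraries and at 14.3, 19.5, 0 and 16.3 in controls. Tmem233 lay at 216, 128, 77.2 and 59 against 0, 0, 0.122 and 14.9. The channel genes were not uniform: Scn9a (95.7 to 157 against 9.75 to 117), P2rx3 (14.1 to 62.3 against 0 to 23.3) and Asic1 (70.2 to 145 against 52 to 293) overlapped between the groups. Under the filter, Asic3 had 250, 5, 33 and 29 counts in Cre libraries and 0 in controls, whereas Trpa1 had 0 counts in all Cre libraries and 17 in control 1. A count of 0 in a library allows up to 3 counts.

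Peptide genes were divided. Of 8 neuropeptide genes tested, 1 was higher and 2 lower at an unadjusted p under 0.05 (3.2% and 1.62% of all genes), and the median log2 fold change was -0.22. Calca, which encodes the nociceptor peptide CGRP alpha, lay at 2044, 802, 267 and 377 normalised CPM in Cre libraries and at 21.4, 52, 0 and 26.4 in controls (log2 fold change 5.13, SE 1.27, adjusted p = 0.227 by edgeR). Calcb, its paralogue, overlapped at 45 to 152 against 11.7 to 79.1. The lower ones were Sst, somatostatin, at 132, 115, 127 and 247 in Cre libraries and 329, 195, 284 and 294 in controls, and Npy, neuropeptide Y, at 49.7, 53.6, 45.8 and 45.4 and 151, 89.3, 104 and 74.8. Both peptides are made by spinal interneurons too. In the Cre somas of batch 1 Sst averaged 0.177 CPM and Npy 0 CPM (n = 4), while Calca averaged 1556 ± 775 CPM (SD, n = 4). Which cells gave the Sst and Npy reads was not tested. Tac1, the substance P gene, lay at 70.4 to 346 against 78 to 311.

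Transcription factor genes of sensory neurons, whose proteins act in the nucleus, were measured in the axonal pulldown too. Of 8 tested, 2 were higher at an unadjusted p under 0.05 (3.2% of all genes) and 3 without overlap (6.77%), and the median log2 fold change was 1.99 (1.29 over the 7 with any control count). Hoxd1, a homeobox gene of nociceptors, lay at 44, 19.9, 54.5 and 7.06 normalised CPM in Cre libraries and had 0 counts in all controls (at least 97.6-fold higher). Insm2, a zinc-finger gene outside the list, lay at 80.6, 19.5, 52 and 6.61, against 0 in all controls (at least 123-fold higher). Pou4f1, which encodes the sensory factor Brn3a, overlapped between the groups at 268, 117, 108 and 64.9 against 62.3, 74, 69.6 and 39. Isl1 lay at 44 to 348 against 0 to 47.8, with an unadjusted p of 0.0536.

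Among C-LTMR markers, Fam19a4, a secreted protein gene of these neurons, lay at 78.5, 24.8, 23.5 and 13.9 normalised CPM in Cre libraries and had 0 counts in all controls (at least 109-fold higher). It was 1 of 5 tested C-LTMR markers higher at an unadjusted p under 0.05 (3.2% of all genes were). The median log2 fold change of the 5 was 0.22 (-0.08 over the 4 with any control count), with 3 positive and 2 negative. Their summed levels overlapped, at 96.2 to 180 normalised CPM in Cre libraries and 39.1 to 158 in controls. Th, tyrosine hydroxylase, overlapped at 4.53 to 22.7 against 0 to 11.2. Markers of large-diameter sensory neurons had a median log2 fold change of -0.51 over 9 tested genes, with 0 higher and 1 lower at an unadjusted p under 0.05 (1.62% of all genes were lower). The lower one was Ntrk3, the neurotrophin-3 receptor, at 47.5, 84.5, 21.4 and 90.1 in Cre libraries and 161, 148, 186 and 83.8 in controls. Etv1 differed from the other large-diameter markers in being higher in every Cre library (29.7 to 114 against 0 to 15.8, unadjusted p = 0.0757).

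The list of annexin and S100 family genes, which also holds Ahnak, included genes among the 25 of smallest p. Of 15 tested, 5 were higher and 1 lower at an unadjusted p under 0.05 (3.2% and 1.62% of all genes), with a median log2 fold change of 0.89. S100a10, which forms a heterotetramer with annexin A2, lay at 1868, 1014, 729.6 and 388 normalised CPM in Cre libraries and 62, 110.2, 170.3 and 154 in controls (log2 fold change 3.01, SE 0.51, adjusted p = 0.161 by edgeR). S100a6 lay at 2069, 948, 406 and 379.6 against 20.3, 96.6, 78 and 94.5 (log2 fold change 3.72, SE 0.67, adjusted p = 0.169 by edgeR). S100a11 and Anxa5 completed the higher members, at 73.1 to 277 against 10.5 to 43.3 and 296 to 1497 against 0.12 to 161. The lower member was S100a16, at 44.2, 111, 96.5 and 168 in Cre libraries and 75.2, 195, 405 and 364 in controls.

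Other genes among the 25 of smallest p lay outside these lists. Ly86, which encodes the secreted protein MD-1, lay at 374, 334, 489 and 165 normalised CPM in Cre libraries and 1.31, 6.97, 0 and 3.46 in controls (log2 fold change 6.86, SE 1.11, adjusted p = 0.158 by edgeR). Crip2, a LIM-domain protein gene, lay at 3099, 1374, 2543 and 749 against 194, 292, 478 and 229, and Cystm1 at 614, 375, 486 and 209 against 55, 37.6, 69.5 and 117. Ppp1r2, an inhibitor of protein phosphatase 1, lay at 193 to 835 against 43 to 115. Dgkz, a diacylglycerol kinase, lay at 283 to 998 against 136 to 176, and Lxn, the carboxypeptidase inhibitor latexin, at 294 to 734 against 83.3 to 171. Sh3bgrl3 lay at 452 to 1533 against 139.7 to 290.4, with 22.9% of its exon length opposite another gene. Efna1, an ephrin ligand, lay at 96.6, 17.3, 17.8 and 9.24 in Cre libraries with 1 count in the controls together (ratio 1247, 95% counting interval 223 to 49280.5). Tmem45b lay at 126, 30.7, 26.1 and 35.2, with 0 counts in all controls (at least 169-fold higher). Ctxn3 and Ms4a3 had 2 counts each over the 4 controls and lay at 29.5 to 58.4 and 14.5 to 59 in Cre libraries. Strand handling in the counting is not given in the sources used here, so reads of overlapping antisense genes cannot be told apart.

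Genes named for a high level in Cre libraries included several signalling genes with a high background and smaller differences. Calm2, a calmodulin gene, lay at 5331, 2842, 5337 and 2448 normalised CPM in Cre libraries and 1448, 1491, 1509 and 2005 in controls (log2 fold change 1.31, SE 0.32). Ywhah, a 14-3-3 protein gene, lay at 676 to 1801 against 189 to 391, and Gng3, a G-protein gamma subunit, at 738 to 2546 against 431 to 599. Fgf13, a sodium channel-binding protein gene, lay at 480.1 to 1456 against 99.1 to 331, and Rgs4, a regulator of G-protein signalling, at 398 to 1637 against 46.9 to 248. Their log2 fold changes were 1.88, 1.47, 2.22 and 2.60, none past the adjusted test. Vamp2, a synaptic vesicle protein, and Aldoa, a glycolytic enzyme, had the smallest differences of those named for abundance, 0.82 (SE 0.29) and 0.85 (SE 0.29).

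Cytoskeletal and growth genes of neurons in general went both ways. The median log2 fold change was -0.02 for the 19 microtubule and growth genes (9 positive and 10 negative), with 4 higher and 1 lower at an unadjusted p under 0.05 (3.2% and 1.62% of all genes), and 0.36 for the 14 synaptic genes, with 2 higher. Avil, the sensory neuron actin-binding protein advillin, lay at 563, 203, 438 and 44.8 normalised CPM in Cre libraries, with 9.36, 0, 0 and 0 in controls, and was the sole member of the microtubule and growth list without overlap upwards. Prph, the intermediate filament protein peripherin of small sensory neurons, lay at 4324, 1859.8, 1696 and 807 against 475, 227, 885 and 958 (unadjusted p = 0.00872), while the neurofilament genes Nefl, Nefm and Nefh had log2 fold changes of -0.48, -0.64 and -0.36. Uchl1 and Gap43 overlapped narrowly, at 1399 to 5053 against 739 to 1729 and 1356 to 3559.7 against 859.5 to 1429. The 18 transcripts described in axons in other work had a median of -0.02, with 1 higher and 1 lower at an unadjusted p under 0.05. Sncb, the beta-synuclein paralogue of Sncg, had a log2 fold change of -0.35 (SE 0.35).

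**Figure D4:**
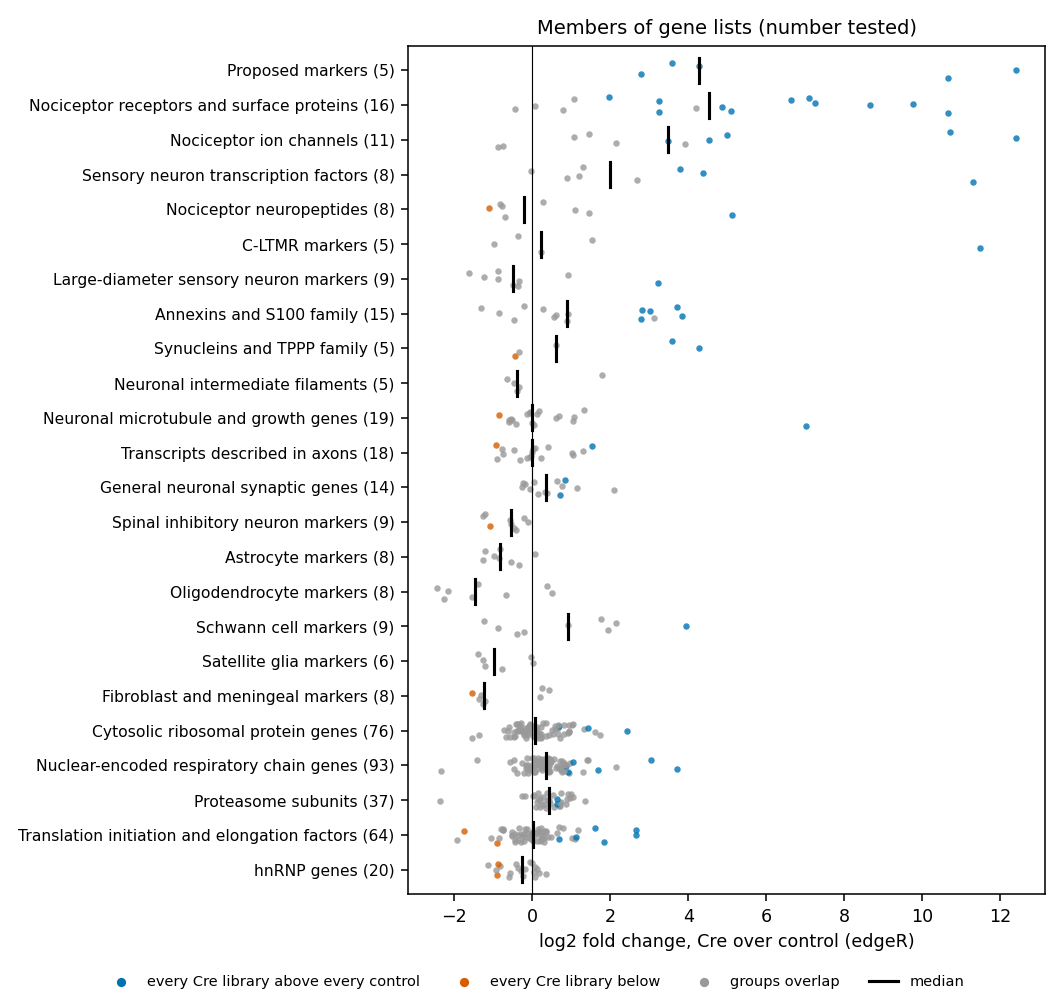
The log2 fold change of Cre over control (edgeR, x axis) for each tested member of the gene lists, with the number tested in brackets and the list median as a black bar. Blue members were higher and orange members lower in every Cre library than in any control, and medians run from 4.53 for nociceptor receptors to -1.47 for oligodendrocyte markers; values of members with 0 control counts depend on the prior count.

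Lists of the protein synthesis and energy machinery had median log2 fold changes from -0.27 for hnRNP genes to 0.42 for proteasome subunits. Of 76 ribosomal protein genes 0 had an unadjusted p under 0.05 in either direction and the median log2 fold change was 0.06 (-0.01 with library size scaling alone). Of 93 nuclear-encoded respiratory chain genes and their assembly factors, 73 had positive log2 fold changes (55.1% of all genes did) with a median of 0.36, and 6 were higher and 0 lower at an unadjusted p under 0.05 (3.2% of all genes were higher). Ndufv3, a complex I subunit, was the member of smallest p, at 768, 411, 385 and 233 normalised CPM against 178, 107, 155 and 239. Of 37 proteasome subunits 34 were positive, and 3 were higher and 0 lower at an unadjusted p under 0.05, among them Psmb6 (638 to 1127 against 422 to 674). Of 64 genes with initiation or elongation factor symbols, which include their kinases and binding proteins, 3 were lower at an unadjusted p under 0.05 (Eif4b, Eif4g1 and Eef1a1; 1.62% of all genes were lower) and 0 higher. Of 20 hnRNP genes 2 were lower, Hnrnpm and Hnrnph1, and 0 higher. Of the mitochondrially encoded genes mt-Co2, mt-Co3, mt-Atp6, mt-Atp8 and mt-Nd4l were listed at 0 in all 8 libraries.

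Markers of the local cells of the cord and roots varied widely between libraries, and most lists had negative medians. Oligodendrocyte markers summed to 383, 6116, 984 and 5863 normalised CPM in Cre libraries and 738, 3537, 19874 and 31329 in controls (8 of 10 tested, 0 at an unadjusted p under 0.05 in either direction, median log2 fold change -1.47). Mbp, which encodes myelin basic protein, lay at 182, 4644, 530.3 and 4018 in Cre libraries and 331, 2742, 15362 and 23758 in controls. Astrocyte markers summed to 853, 2124, 2111 and 2736 and 2437, 2876, 3675 and 4014, and 1 of 8, Aqp4, was lower at an unadjusted p under 0.05 (1.62% of all genes were). Spinal inhibitory neuron markers summed to 228 to 507 in Cre libraries and 397 to 1009 in controls. Lamp5 was 1 of 9 lower at an unadjusted p under 0.05 (1.62% of all genes), at 71.7 to 128 against 149 to 266. Fibroblast markers summed to 388 to 1960.4 against 1412 to 3617, with 2 of 8, Col1a1 and Col1a2, lower at an unadjusted p under 0.05 (1.62% of all genes). Summed Schwann cell markers overlapped, at 307 to 712 against 154 to 521, with a median log2 fold change of 0.91 over 9 tested genes. Of these 5 were positive (55.1% of all genes were), 4 were negative and 0 had an unadjusted p under 0.05. Summed microglial markers lay at 50.8 to 79.9 against 53.4 to 103. By contrast, the nociceptor receptor list summed to 4752, 1204, 1525 and 845 in Cre libraries and 638, 462, 262 and 566 in controls, with no overlap.

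Within the Cre group, library 1 was highest for the receptor and ion channel lists and lowest for the oligodendrocyte and astrocyte lists. Without Cre library 1, edgeR log2 fold changes were 4.01 for Sncg, 3.28 for Tppp3 and 2.36 for Anxa2. With all libraries they were 4.28, 3.58 and 2.78. Of the proposed markers only Sncg passed without that library (edgeR adjusted p = 0.0068). Tppp3 was then at 0.0575, and Acpp, Scn11a and Anxa2 were at 0.539. Why library 1 differed was not tested. In these bulk pulldowns fewer cells of a type and less RNA per cell cannot be told apart.

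**Figure D5:**
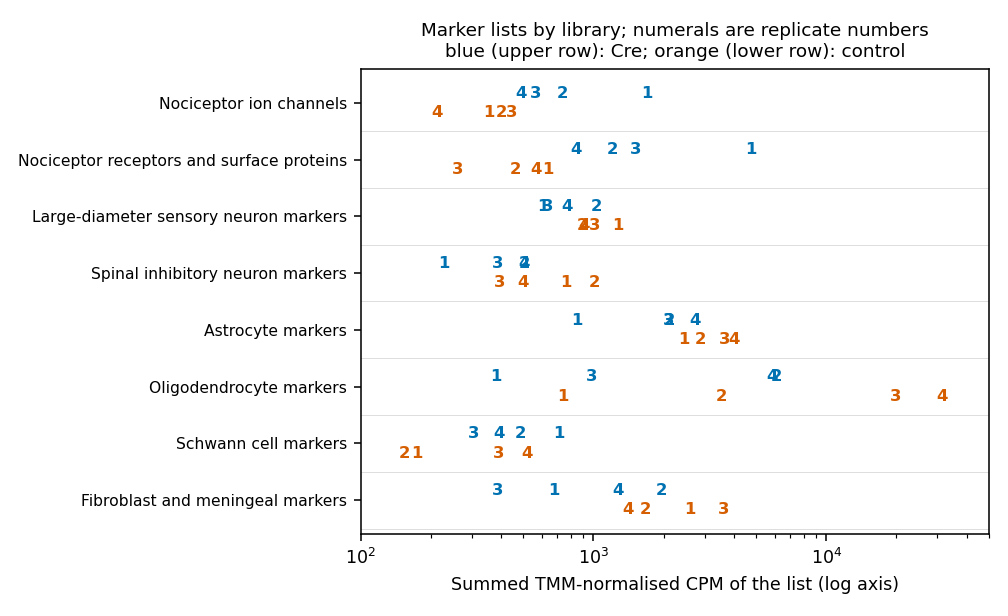
Summed TMM-normalised CPM (log x axis) of 8 marker lists in each library, with numerals as replicate numbers, Cre libraries in the upper blue row and controls in the lower orange row of each list. The 2 nociceptor lists do not overlap between the groups, whereas the oligodendrocyte list runs from 383 to 6116 in Cre libraries and from 738 to 31329 in controls.

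The lower genes were fewer and the named ones, chosen by the same rule, included genes that glia express. Serpine2, a protease inhibitor gene, had the smallest p among them, at 183, 235, 141 and 342 normalised CPM in Cre libraries and 519, 537, 566 and 665 in controls (log2 fold change -1.34, SE 0.33, adjusted p = 0.227 by edgeR). Ptprz1, a receptor phosphatase of glia and their precursors, lay at 137, 272, 85.3 and 237 against 546, 541, 821 and 334. Mlc1, an astrocyte membrane protein, lay at 20.8 to 63.2 against 64.7 to 334, and Hoxb5, a homeobox gene, at 23.6, 26.9, 24.1 and 39.4 against 77.7, 164, 230.1 and 64.2. Sh3gl3, Agap1, Camk2n1 and Mib1 had log2 fold changes of -1.98, -1.52, -1.80 and -1.69. None of the 8 passed edgeR's adjusted test, and DESeq2 called Serpine2, Hoxb5, Sh3gl3 and Mib1.

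The soma libraries of the same batch, which share no pulldown with the axons, gave a separate reading of these genes. Among genes with a mean of at least 32 normalised CPM, the 299 higher without overlap had a median of 171 CPM in the Cre somas, the 169 lower ones 27.5 CPM, and all 6819 such genes 54.3 CPM. At least 10 counts in all 4 Cre somas were found for 297 of the 299 higher genes (99.3%), 142 of the 169 lower ones (84.0%) and 95.7% of all. The higher, lower and all such genes had medians of 132, 69.2 and 75.4 normalised CPM in central axon Cre libraries. They were not matched for this level, and its part in the soma values was not tested. For the 110 genes with 0 counts in all axonal controls the share was 70 of 110 (63.6%), against 76.3% of all genes tested. The 2 sets differ in level, with medians of 6.26 and 29.4 normalised CPM in central axon Cre libraries, and were not matched for it. The mean level in central axon Cre libraries was 18.9 to 91.2% of the level in Cre somas for the 25 genes of smallest p, with a median of 49.2%. S100a6 had the lowest of these shares, 18.9%, and Dgkz the highest, 91.2%. Both levels are relative to the library total and include the background, so the share is no ratio of amounts in axon and soma. For the 8 named lower genes it ran from 117% (Mib1) to 1120% (Ptprz1). Higher genes were also shorter: the 135 higher genes at that level with an unadjusted p under 0.05 and no overlap had a median exon length of 2911 bases, the 111 lower ones 5488 and all genes at that level 4753. The part of transcript length in the differences was not tested.

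Peripheral axons from sciatic nerve, with 4 Cre libraries and 3 controls of batch 2, share no library with the central axons. The nerve values below were nevertheless taken from a joint fit with the central axon libraries. Their SEs and p-values thus rest in part on the spread of the central libraries. In the nerve 21 of the 25 genes were positive, with a median log2 difference of 0.32. S100a6 alone among them had an unadjusted p under 0.05 (log2 fold change 1.93, SE 0.78, edgeR). Sncg differed by 0.32 (SE 0.55) in the nerve and Tppp3 by 0.20 (SE 0.61). Of the 299 higher genes at 32 normalised CPM or more, 214 (71.6%) were positive in the nerve, compared with 55.8% of all genes at that level, and 4 (1.34%) were higher at an unadjusted p under 0.05, compared with 2.68%. For the 110 genes with 0 counts in central controls, 18 (16.4%) were higher in the nerve at an unadjusted p under 0.05, against a background of 3.6% of the 14161 genes tested in both fits, and 2 (1.82%) were lower, against 0.918%. The central libraries by which the 299 and the 110 genes were chosen enter the same fit and its dispersion estimates. These nerve p-values are therefore not independent of that choice. The difference between the central and the peripheral contrast passed the adjusted test for 1 of 17314 genes (0.00578%), and for 0 of the 25. That gene was Sema3b, a secreted semaphorin, at 8.38, 16.1, 12.3 and 7.57 normalised CPM in central Cre libraries and 0, 0, 0 and 0.197 in central controls, but at 159 to 211 in nerve Cre libraries and 134 to 225 in nerve controls (difference of log2 fold changes 7.29, SE 1.04, edgeR adjusted p = 0.0257, a value that depends on the prior count). This call was lost when Cre library 1, 2 or 3 or control 2 of the central axons, any peripheral Cre library or peripheral control 2 was left out (edgeR adjusted p from 0.0583 to 0.215). Tissue, batch and nerve differ together in this comparison and cannot be told apart.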

How the data were processed

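RNA pulled down by TRAP was sequenced from 8 central axon libraries. The authors deposited whole-number counts per gene, not normalised, for 55536 gene identifiers, all of them in GENCODE M21 (GRCm38), which gave symbols, types and exon lengths. Per the submitters' processing notes STAR 2.7.2b and mm10 were used; the counting program and its handling of strand are not given in the sources used here. Filtering used filterByExpr (minimum count 10, minimum total 15), scaling TMM, and testing edgeR 4.0.16 glmQLFit and glmQLFTest in R 4.3.3, with Benjamini-Hochberg adjustment over all 14189 genes. The peripheral contrast and its difference from the central one came from a single edgeR fit of the central and peripheral axon libraries. The SE of a log2 fold change is its size divided by the square root of the F value. The fit was tested on simulated data with less spread between replicates than these libraries have. Bounds and intervals cover counting error only, since the libraries carry no molecular identifiers.

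Alternatives were RLE or library-size scaling, other filters, DESeq2 1.42.0, voom (limma 3.58.1), robust estimation, a replicate block, axon and soma libraries of batch 1 fitted together, and leaving out each library. A split at 32 normalised CPM was added after seeing the data. The markers, the 34 gene lists and the rule for named genes were chosen with earlier results of these data known. That rule took 7 preset genes, the 25 higher and 8 lower non-overlapping genes of smallest p, the 15 non-overlapping genes with an unadjusted p under 0.05 of highest mean in Cre libraries, and up to 4 members per list of smallest p; not every one is described, and some items are not reported here. No 2 replicates agreed within sampling noise (chi-square over degrees of freedom at least 64.6 in the 12 pairs), and 0 columns were left unmapped.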

Additional observations from a re-analysis of the deposited data

Results flagged for a closer look

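A value was singled out where the gap between the highest or lowest of 4 libraries and its nearest neighbour took an unusually large part of the group's range. Of 266 groups of 4 examined (99 genes and 34 lists, each in both groups) 26 were singled out, and chance gives about 1 in 20. Cre library 1 stood above the other Cre libraries for Acpp (145 normalised CPM, others 24.1 to 37.3), Tmem45b (126, others 26.1 to 35.2), Efna1 (96.6, others 9.24 to 17.8), Fam19a4 (78.5, others 13.9 to 24.8) and Mrgpra1 (125, others 11.1 to 25.2). It stood below them for the neurofilament gene Nefl (1354, others 1964 to 2041). Cre library 3 was lowest for Eif4b (59.2, others 87.2 to 91.6), and Cre library 4 highest for Sst (247, others 115 to 132).

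Control 4 stood above the other controls for Scn10a (30.6 normalised CPM, others 0 to 2.13), Tmem233 (14.9, others 0 to 0.122), P2rx3 (23.3, others 0 to 3.61), Calm2 (2005, others 1448 to 1509) and Stmn4 (859, others 483 to 508). Control 3 was highest for Eef1a1 (878, others 412 to 447) and Calcb (79.1, others 11.7 to 17.9). Control 1 held 9.36 of Avil, where the others had 0, and 1.23 of Mrgprd, likewise against 0. Control 2 was lowest for Ywhah (189, others 358 to 391) and Gng3 (431, others 581 to 599).

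Among summed lists, control 4 was highest for the synuclein and TPPP family (1227 normalised CPM, others 861 to 915) and the hnRNP genes (4752, others 3187 to 3442). Control 3 was highest for the endothelial and mural markers (301, others 99.2 to 127), and lowest for the spinal excitatory markers (90.6, others 364 to 396). Control 1 was highest for motor neuron markers (109, others 0 to 5.89). Cre library 1 was highest for V-ATPase subunits (5749, others 3977 to 4221), and Cre library 3 lowest for mitochondrially encoded genes (329.6, others 2142 to 2513).

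Sema3b is the single gene whose difference between Cre and control differed between central and peripheral axons by a test of that difference (log2 7.29, edgeR adjusted p = 0.0257).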

How the results depend on the processing

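RLE scaling, library size alone, robust estimation and the stricter filter left the number of called genes at 2, and Sncg and Tppp3 were the 2 in each. Without a low-count filter 34 genes were called and 2234 were higher at an unadjusted p under 0.05; DESeq2 called 217 genes (193 higher and 24 lower, 645 without an adjusted p) and voom 137 (136 higher and 1 lower), with 1955 higher at an unadjusted p under 0.05. Voom also moved the median log2 fold change of all genes from 0.11 to 1.21, and the replicate block moved it to 0.77. With axon and soma libraries of batch 1 fitted together 1 gene was called (Scn11a, adjusted p = 0.0192, with Sncg at 0.0549 and Tppp3 at 0.0777), and 745 genes were higher at an unadjusted p under 0.05. At a mean of 32 normalised CPM or more, 2 genes were called, 207 were higher at an unadjusted p under 0.05 and 299 were higher without overlap. Leaving out 1 library gave 0 to 5 called genes, 356 to 1879 higher at an unadjusted p under 0.05 (most without control 1) and 1188 to 2435 higher without overlap, a count that fewer libraries raise by construction. For the difference between central and peripheral axons, which called 1 gene, 26 were called without a filter, 285 by DESeq2, 4 by voom and 0 to 68 when 1 library was left out (68 without central control 1). The causes of these changes were not tested.

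Replicate numbers are shared by the groups, but samples with the same number did not deviate together (correlations of deviations -0.03 to 0.06, and 2 of 4 Cre libraries correlated best with their own number). With the replicate block 1 gene was called, Sncg (adjusted p = 0.0305), Tppp3 was at 0.213, and 527 genes were higher at an unadjusted p under 0.05. The log2 fold change of Rpl10a, -0.16, changed direction under voom (0.21) and with the replicate block (0.043), and ran from -0.40 to 0.24 when 1 library was left out (positive without control 2 or 3). That of Tac1 ran from -0.19 (without Cre library 1) to 0.84. The medians of ribosomal protein genes and translation factors, 0.06 and 0.01, lay on both sides of 0 across scalings. The controls' depth limits a gene with 0 counts to 3 counts per library, or 0.322 normalised CPM on average.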

Other observations

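Some marker lists entered no comparison above and are given here by their values. Satellite glia markers summed to 1305 to 3969 normalised CPM in Cre libraries and 3061 to 6222 in controls, with 5 of 6 genes negative and 1 of them lower at an unadjusted p under 0.05 (1.62% of all genes were). That gene was Fabp7, a fatty acid-binding protein of glia, at 516, 870.3, 673 and 1262 in Cre libraries and 1171, 944, 2814 and 2723 in controls. Oligodendrocyte precursor markers had a median of -1.05 over 5 genes. Of these 1, Olig1, a lineage transcription factor, was lower at an unadjusted p under 0.05 (65 to 244 against 226 to 728), beside 1.62% of all genes. Spinal excitatory neuron markers had a median of -0.86 over 7 genes, endothelial markers -0.42 over 8, erythrocyte genes -0.74 over 5, and immediate early and injury genes -0.30 over 9, each with 0 genes at an unadjusted p under 0.05. Motor neuron markers had a median of 0.73 over 4 genes, ependymal markers 0.62 over 4 and V-ATPase subunits 0.21 over 19, again with 0 genes. The 7 mitochondrially encoded genes tested had a median of -0.21 and 0 such genes. No list beyond the proposed markers and the synuclein and TPPP family held a gene that passed edgeR's adjusted test; both lists hold Sncg and Tppp3.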
